A study of Homo sapiens with 18 samples.

Results

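The measurements described here are those of 32 genes of homologous recombination and the Fanconi anaemia pathway, with the checkpoint kinases that act beside them. The genes were chosen by name: a member is a row with a listed symbol in the count tables of both cell lines, and all 32 symbols were found among 23686 gene rows. All 32 also passed the low-count filter of the test in both lines. The series measured RNA in OCI-Ly1 and TMD8, both lines of human diffuse large B-cell lymphoma. Both were treated with JIB-04, a small-molecule inhibitor of Jumonji-domain histone demethylases, enzymes that take methyl groups off histone lysines. Each line had 3 groups of 3 libraries: DMSO at 0.01% as the vehicle, JIB-04 at 150 nM and JIB-04 at 500 nM, 18 libraries in all. Total RNA depleted of ribosomal RNA was read in pairs.

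OCI-Ly1 grew in IMDM and TMD8 in RPMI 1640, each with 10% serum, so line and medium cannot be told apart. No time of treatment is given. The libraries are described as technical triplicates, and nothing says that they came from separate cultures, so every p-value given here measures the spread between these libraries. Both doses of a line are compared with the same DMSO libraries. Each OCI-Ly1 library held 17579732 to 32651115 estimated counts, each TMD8 library 9550092 to 20509500. The 6 B-cell marker genes together gave 1277 to 1329 CPM (counts scaled to a common library total) with DMSO in OCI-Ly1 and 2747 to 2916 in TMD8. The 4 germinal-centre markers gave 638 to 665 CPM in OCI-Ly1 and 105 to 112 in TMD8, and the 4 activated-B-cell markers 506 to 526 and 4274 to 4589. Of markers of other cell types, the 4 myeloid genes gave at most 3.27 CPM in any library, with FCGR3A at 0 counts in the DMSO libraries of both lines. The 4 T-cell genes gave 20.1 to 23.0 CPM in OCI-Ly1 with DMSO and 12.2 to 14.6 at 500 nM, with CD4 at 0 counts under DMSO, and at most 3.89 CPM in TMD8, with CD3E at 0 in every TMD8 library. The 3 epithelial genes gave 7.18 to 14.8 CPM in OCI-Ly1 and 59.3 to 69.6 in TMD8. The 3 fibroblast genes gave at most 1.49 CPM in OCI-Ly1, and in TMD8 4.25 to 5.38 CPM with DMSO and 31.8 to 32.7 at 500 nM, mostly from COL1A1. The part of these markers in the results below was not tested.

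Homologous recombination repairs a broken chromosome by copying the intact sister, and so works mainly in cells that are copying or have copied their DNA. The MRE11-RAD50-NBN complex senses the ends, nucleases and helicases trim them to single strands, BRCA proteins prepare the single strand for exchange, and RAD54 proteins help it invade the sister. The Fanconi anaemia core complex attaches ubiquitin to FANCD2 and FANCI at DNA crosslinks, and ATM, ATR, CHEK1 and CHEK2 signal damage and hold the cell cycle. In B cells the same machinery meets breaks made by antibody gene editing and rapid division.

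JIB-04 was followed by small changes in these genes, and the changes differed between the lines. At 500 nM, 8 of the 32 rose in OCI-Ly1 and 4 fell, where 53.6% of the 15638 genes tested were called, 27.7% higher and 25.9% lower. The members called were thus 25% higher and 12.5% lower. In TMD8 at the same dose 6 rose and 13 fell, or 18.8% and 40.6%, where 60.7% of the 15363 genes tested were called, 29.9% higher and 30.7% lower. A call means an adjusted p under 0.05 in edgeR's quasi-likelihood test, adjusted over all genes tested in that line. The largest change was the rise of EXO1 in OCI-Ly1, by 0.87 on the log2 scale, and the largest fall that of CHEK2 in the same line, -0.59. The median change of the members was 0.09 in OCI-Ly1, against -0.0033 over all genes tested, and -0.10 in TMD8, against 0.0414.

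The split depended on how libraries were scaled. In OCI-Ly1 at 500 nM, 18 members were higher and 4 lower with library totals alone, 19 and 1 on log2(TPM + 1), where TPM is the deposited abundance scaled for transcript length and depth, and 5 and 5 on that scale after centring each library on its median. In TMD8 at 500 nM the same scalings gave 9 higher and 8 lower, 0 and 24, and 3 and 19. The split over all genes moved as well. In OCI-Ly1 8552, 7979 and 8981 of 15638 genes were called under these 3, and 64%, 71.9% and 32.3% of those calls were higher. In TMD8 9562, 9332 and 10371 of 15363 genes were called, and 59.4%, 18.8% and 48.3% of those calls were higher. The median of all genes itself moved: to 0.0838, 0.101 and -0.124 in OCI-Ly1, and to 0.134, -0.219 and 0.0348 in TMD8. Relative to that median, 9 of 32 members lay below it in OCI-Ly1 with the main scaling and 7 to 9 under these 3, and 23 of 32 in TMD8 with the main scaling and 23 to 25 under these 3. The values that follow are from the main scaling. Where a scaling turned the sign of a member called against DMSO at 500 nM, its value stands beside the gene, and no direction is read from a value with no call.

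**Figure D1:**
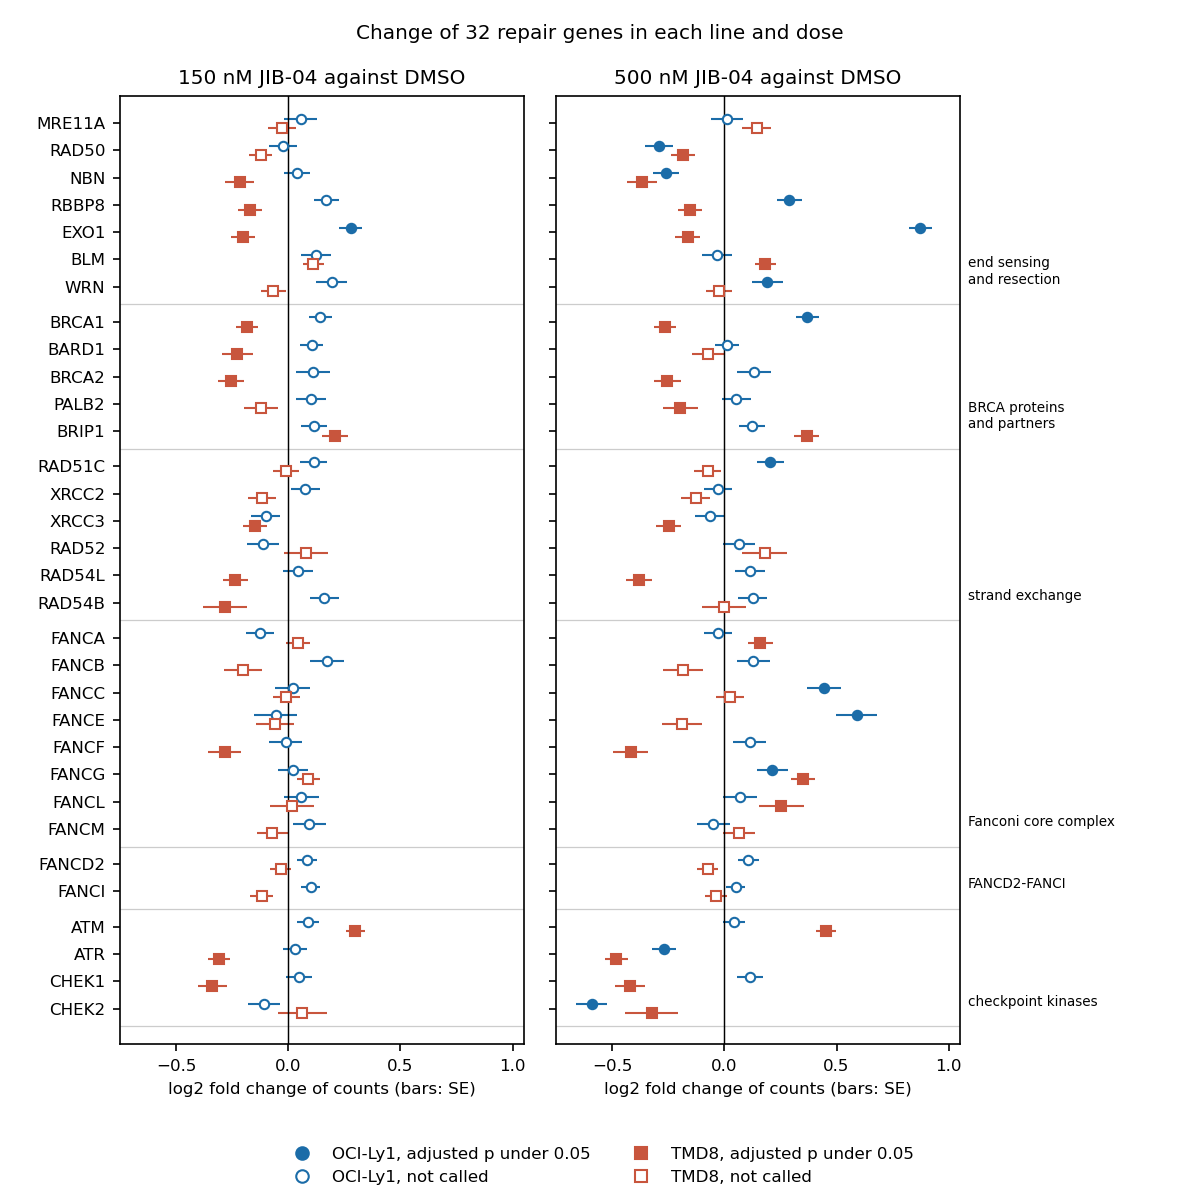
Change of each of the 32 genes against DMSO at 150 nM (left) and 500 nM (right), as log2 fold change of counts with its standard error. Circles are OCI-Ly1 and squares TMD8, filled where the adjusted p is under 0.05; EXO1 of OCI-Ly1 lies farthest right, at 0.87, and most BRCA and kinase genes of TMD8 lie left of 0.

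By call at 500 nM the members fell into a few patterns. RBBP8, EXO1 and BRCA1 were higher in OCI-Ly1 and lower in TMD8, a pattern held by 5.01% of the 14483 genes tested in both lines. RAD50, NBN, ATR and CHEK2 were lower in both, as were 13.7% of those genes, and FANCG was higher in both, as were 14.1%. BRCA2, PALB2, XRCC3, RAD54L, FANCF and CHEK1 were lower in TMD8 with no call in OCI-Ly1, 6 of 32 against 13% of those genes. BLM, BRIP1, FANCA, FANCL and ATM were higher in TMD8 with no call in OCI-Ly1, 5 of 32 against 11.4%. WRN, RAD51C, FANCC and FANCE were higher in OCI-Ly1 with no call in TMD8, 4 of 32 against 9.02%. MRE11A, BARD1, XRCC2, RAD52, RAD54B, FANCB, FANCM, FANCD2 and FANCI had no call in either line at this dose, 9 of 32 against 20.7%.

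Promoters are shown for genes of the opposite, shared-lower and TMD8-lower patterns, so that the letters before each start can be compared. Each run below holds the 200 bases before the RNA start, 5′ to 3′ on the gene's own strand, from the RefSeq promoter table on GRCh38.p14. EXO1, RBBP8, BRCA1 and RAD54L had 2 entries there and CHEK1 3. For each member the entry that held the most GENCODE transcript starts was used, and other entries are not shown. Capitals mark matches, on either strand, to an E2F-type motif (TTCCCGC or TTGGCGC) or a CCAAT box (CCAAT), and no match to a CHR-type motif (TTTGAA or TTCGAA) was in any of these runs. On the minus strand of a motif the letters read GCGGGAA or ATTGG. The TTGGCGC letters can overlap a reversed CCAAT box. The opposite pattern is shown first, with EXO1 at chr1:241848004-241848203, plus strand, RBBP8 at chr18:22933667-22933866, plus strand, and BRCA1 at chr17:43125365-43125564, minus strand.
EXO1: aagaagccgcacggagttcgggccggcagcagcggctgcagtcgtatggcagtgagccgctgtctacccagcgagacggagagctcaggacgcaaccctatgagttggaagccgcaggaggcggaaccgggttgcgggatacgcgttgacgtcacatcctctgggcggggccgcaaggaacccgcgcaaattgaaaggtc
RBBP8: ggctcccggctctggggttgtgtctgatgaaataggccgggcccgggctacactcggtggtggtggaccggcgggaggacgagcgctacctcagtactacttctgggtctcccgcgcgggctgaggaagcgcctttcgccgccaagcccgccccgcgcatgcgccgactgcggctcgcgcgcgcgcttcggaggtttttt
BRCA1: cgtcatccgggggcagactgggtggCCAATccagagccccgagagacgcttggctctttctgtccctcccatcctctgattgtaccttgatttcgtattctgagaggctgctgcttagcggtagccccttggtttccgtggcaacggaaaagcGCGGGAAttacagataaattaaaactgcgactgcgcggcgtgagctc
ATR at chr3:142578734-142578933, minus strand, and CHEK2 at chr22:28741821-28742020, minus strand, were lower in both lines.
ATR: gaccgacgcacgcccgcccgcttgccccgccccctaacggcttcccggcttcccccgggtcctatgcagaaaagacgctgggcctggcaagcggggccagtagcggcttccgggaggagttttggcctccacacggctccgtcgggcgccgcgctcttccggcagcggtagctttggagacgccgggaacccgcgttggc
CHEK2: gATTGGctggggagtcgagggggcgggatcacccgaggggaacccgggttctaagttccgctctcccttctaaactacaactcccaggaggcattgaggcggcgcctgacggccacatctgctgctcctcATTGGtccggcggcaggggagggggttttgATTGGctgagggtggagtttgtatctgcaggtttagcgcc
CHEK1 at chr11:125626024-125626223, plus strand, and RAD54L at chr1:46247488-46247687, plus strand, were lower in TMD8 alone by call.
CHEK1: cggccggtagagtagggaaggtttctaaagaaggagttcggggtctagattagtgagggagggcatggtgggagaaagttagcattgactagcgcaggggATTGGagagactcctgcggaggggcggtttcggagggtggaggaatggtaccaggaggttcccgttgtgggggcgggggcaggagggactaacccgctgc
RAD54L: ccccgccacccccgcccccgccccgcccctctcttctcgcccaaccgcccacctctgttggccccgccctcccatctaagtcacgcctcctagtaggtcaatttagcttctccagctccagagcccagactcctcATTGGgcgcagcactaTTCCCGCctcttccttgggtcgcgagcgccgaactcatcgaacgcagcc

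The BRCA1 run held an E2F-type match beginning 47 bases before the start and a CCAAT box 175 before it. RAD54L held an E2F-type match at 49 bases and a CCAAT box at 65. CHEK2 held 3 CCAAT boxes, at 199, 70 and 40 bases, and CHEK1 held 1, at 100 bases. EXO1, RBBP8 and ATR held none of these letters in the run. Over the 250 bases before the start, 28 of the 32 members had an entry, and NBN, WRN, RAD54B and FANCI did not. For the shares over other genes the first listed entry of each gene was used, so entries were not chosen alike. An E2F-type motif was in 7 of the 28 (25%), against 11.6% of 11140 genes tested in either line with an entry and 7.95% of 27305 genes in the table. These 7 were BRCA1, BLM, RAD52, RAD54L, FANCC, FANCG and FANCL, which spread over 6 of the call patterns. A CCAAT box was in 13 of 28 (46.4%), against 34.8% and 33%, among them 5 of the 6 genes called lower in TMD8 alone and 4 of the 5 called higher in TMD8 alone. Of the other patterns, it was in 1 of 3 with opposite calls, 1 of 3 lower in both lines and 2 of 7 with no call. None of the 3 genes higher in OCI-Ly1 alone held it, nor the 1 higher in both. A link between motif and call was not tested. A CHR-type motif was in 2 of 28 (7.14%), against 10.2% and 14.6%. A match describes letters and not a bound site.

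Before treatment the members were among the better expressed genes, in TPM, a level per transcript length. In OCI-Ly1 with DMSO their median was 29.3 TPM, against 10.3 over all genes tested, and 29 of 32 lay above that median. In TMD8 the median was 10.4 TPM, against 5.74, and 26 of 32 lay above it. The highest levels in OCI-Ly1 were those of NBN at 130.8, FANCI at 99.6 and RBBP8 at 92.8 TPM, and the lowest that of WRN at 7.38. The order was not the same in TMD8, where EXO1 at 27.7, RBBP8 at 27.1, FANCI at 26.4 and RAD51C at 26.2 TPM came first and RAD52 at 2.63 last.

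The genes of end sensing and resection were 7: MRE11A, RAD50, NBN, RBBP8, EXO1, BLM and WRN. At 500 nM, 3 of them rose in OCI-Ly1 and 2 fell, where 27.7% of all genes rose and 25.9% fell. In TMD8 1 of them rose and 4 fell, against 29.9% and 30.7% of all genes. EXO1, an exonuclease that lengthens the single strand at a trimmed end, measured 129.7, 128 and 132 CPM in the DMSO libraries, 154, 155 and 163 under 150 nM, and 247, 234 and 232 under 500 nM in OCI-Ly1. All 3 libraries at each dose lay above those of the dose below. The log2 fold change of EXO1 was 0.28, SE 0.051, adjusted p = 0.00769 at 150 nM, and 0.87, SE 0.050, adjusted p = 1.20e-10 at 500 nM. In TMD8, EXO1 measured 135, 119 and 119.9 CPM in the DMSO libraries, 109, 110.2 and 106 under 150 nM, and 107, 115 and 112 under 500 nM. There the treated libraries of both doses lay below DMSO and overlapped each other, with log2 fold changes of -0.20, adjusted p = 0.00511 at 150 nM and -0.16, adjusted p = 0.0140 at 500 nM. EXO1 was the 1 member called at 150 nM in OCI-Ly1, where 0.889% of genes were called, 0.748% higher and 0.141% lower, and without DMSO replicate 2 it missed the threshold (0.27, adjusted p = 0.0528). Its fall in TMD8 missed it without 150 nM replicate 3 at the low dose (-0.16, adjusted p = 0.0502), and at 500 nM without 500 nM replicate 1 (-0.14, adjusted p = 0.0762) and with library totals alone (-0.07, adjusted p = 0.192).

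RBBP8 encodes CtIP, which starts resection together with the MRE11 complex. It measured 228, 224 and 242 CPM in the DMSO libraries, 243, 256 and 282 under 150 nM, and 288, 279.9 and 280.5 under 500 nM in OCI-Ly1. The treated libraries of both doses lay above DMSO, and the call came at 500 nM (0.29, SE 0.056, adjusted p = 3.10e-04). In TMD8, RBBP8 measured 129.6, 116 and 118 CPM in the DMSO libraries, 110.0, 107 and 105 under 150 nM, and 103, 112 and 112 under 500 nM. All 6 treated libraries lay below the DMSO libraries, with -0.17, adjusted p = 0.0139 at 150 nM and -0.15, adjusted p = 0.0182 at 500 nM. The TMD8 call at 500 nM was lost without DMSO replicate 1 (-0.11, adjusted p = 0.0602), without 500 nM replicate 1 (-0.12, adjusted p = 0.117) and with library totals alone (-0.06, adjusted p = 0.251). That at 150 nM was lost without 150 nM replicate 3 (-0.12, adjusted p = 0.112), with library totals alone (-0.08, adjusted p = 0.138) and when only the 6 libraries compared were fitted (-0.14, adjusted p = 0.0697).

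Of the 3 subunits of the end-sensing complex, RAD50 and NBN were called lower at 500 nM in both lines and MRE11A in neither. RAD50, the subunit that tethers DNA ends, measured 126, 131 and 146 CPM in the DMSO libraries, 127, 128 and 141 under 150 nM, and 112, 108 and 109 under 500 nM in OCI-Ly1. It was lower at 500 nM in all libraries and overlapped DMSO at 150 nM (-0.29, SE 0.062, adjusted p = 7.25e-04 at 500 nM). In TMD8, RAD50 measured 189.9, 169 and 166 CPM in the DMSO libraries, 161, 160.0 and 160.4 under 150 nM, and 154, 157 and 150.0 under 500 nM. The fall at 500 nM was -0.18, SE 0.052, adjusted p = 0.00505, and was lost with library totals alone (-0.09, adjusted p = 0.0822). NBN, which recruits ATM to the complex, measured 438, 484 and 491 CPM in the DMSO libraries, 437, 496 and 518 under 150 nM, and 402, 389 and 388 under 500 nM in OCI-Ly1. Only the 500 nM libraries lay clear below DMSO (-0.26, SE 0.059, adjusted p = 0.00131). In TMD8, NBN measured 95.4, 84.5 and 82.1 CPM in the DMSO libraries, 79.5, 77.8 and 68.5 under 150 nM, and 65.3, 68.5 and 69.5 under 500 nM. It was below DMSO in all libraries of both doses, with -0.22, adjusted p = 0.0108 at 150 nM and -0.37, adjusted p = 1.09e-04 at 500 nM. The falls of RAD50 and NBN in OCI-Ly1 were lost on log2(TPM + 1) (-0.14, adjusted p = 0.147, and -0.12, adjusted p = 0.234), and the 150 nM fall of NBN in TMD8 without 150 nM replicate 3 (-0.12, adjusted p = 0.158), with library totals alone (-0.13, adjusted p = 0.0698) and with the 6 libraries alone (-0.18, adjusted p = 0.0536). MRE11A, the nuclease subunit, had no call, with 0.01, adjusted p = 0.907 in OCI-Ly1 and 0.14, adjusted p = 0.0637 in TMD8 at 500 nM, and the TMD8 value turned to -0.19, adjusted p = 0.0873 on log2(TPM + 1).

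BLM and WRN are RecQ helicases that unwind DNA for resection and at stalled forks. BLM rose in TMD8 at 500 nM, from 90.3 to 98.0 CPM to 104 to 109 (0.18, SE 0.048, adjusted p = 0.00304), but its value was -0.18 on log2(TPM + 1) and 0.07, adjusted p = 0.185 after centring. In OCI-Ly1 its value was -0.03, adjusted p = 0.696. WRN rose in OCI-Ly1 at 500 nM, from 30.8 to 34.6 CPM to 36.6 to 38.7 (0.19, SE 0.069, adjusted p = 0.0257). That call was lost without DMSO replicate 1 (0.13, adjusted p = 0.157), without 500 nM replicate 1 (0.17, adjusted p = 0.0893), without 500 nM replicate 3 (0.18, adjusted p = 0.0750) and after centring (0.07, adjusted p = 0.415).

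**Figure D2:**
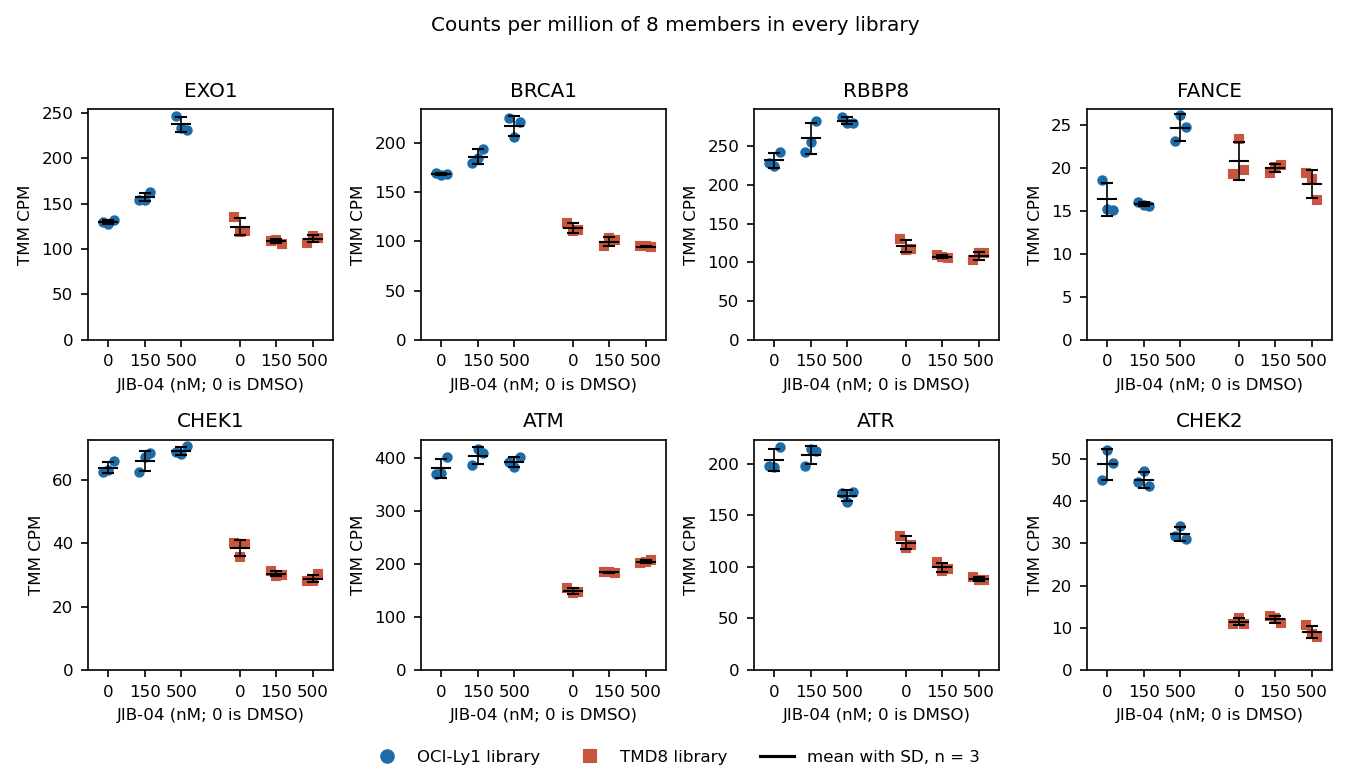
CPM of 8 members in each of the 18 libraries, by JIB-04 dose in nM (0 is DMSO), on linear axes from 0; circles are OCI-Ly1, squares TMD8, and bars the mean with its SD of 3 libraries. In OCI-Ly1 each dose lies above the one below for EXO1 and BRCA1, and both doses of RBBP8 lie above DMSO and overlap each other; all 3 genes lie below DMSO in TMD8, ATM rises in TMD8, and CHEK2 falls at 500 nM in both lines.

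The BRCA proteins and partners were BRCA1, BARD1, BRCA2, PALB2 and BRIP1. In OCI-Ly1 at 500 nM, 1 of the 5 rose and none fell by call, against 27.7% and 25.9% of all genes. In TMD8 1 rose and 3 fell, against 29.9% and 30.7%. BRCA1, a ubiquitin ligase that favours resection, measured 169, 167 and 169 CPM in the DMSO libraries, 179, 185 and 194 under 150 nM, and 225, 206 and 221 under 500 nM in OCI-Ly1. Each dose lay above the one below with no overlap, and the change at 500 nM was 0.37, SE 0.052, adjusted p = 1.09e-05. In TMD8, BRCA1 measured 119, 110.3 and 111 CPM in the DMSO libraries, 95.3, 103 and 101 under 150 nM, and 95.0, 94.9 and 93.8 under 500 nM. Here each dose lay below DMSO, with -0.18, adjusted p = 0.00462 at 150 nM and -0.26, adjusted p = 1.46e-04 at 500 nM. The fall at 150 nM was lost with library totals alone (-0.10, adjusted p = 0.0763). BRCA1 has a partial copy, the pseudogene BRCA1P1, so reads of the shared stretch are uncertain.

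BRCA2, which acts on single-stranded DNA before strand exchange, measured 99.8, 105 and 107 CPM in the DMSO libraries, 95.5, 117 and 124 under 150 nM, and 109.8, 115 and 117 under 500 nM in OCI-Ly1. All libraries of 500 nM lay above DMSO, but the change of 0.13, adjusted p = 0.15, did not pass the test. In TMD8, BRCA2 measured 105, 89.5 and 96.4 CPM in the DMSO libraries, 79.8, 78.0 and 85.5 under 150 nM, and 83.4, 79.5 and 80.9 under 500 nM. It fell to the same extent at both doses (-0.25, adjusted p = 0.00169 at 150 nM and -0.25, adjusted p = 0.00117 at 500 nM), and the doses overlapped. BRIP1, a helicase that binds BRCA1 and is also a Fanconi gene, went the other way in TMD8. Its values there were 79.4, 75.9 and 71.8 CPM in the DMSO libraries, 82.5, 87.0 and 92 under 150 nM, and 97.6, 102 and 92.3 under 500 nM. Both doses lay above DMSO, with 0.21, adjusted p = 0.00592 at 150 nM and 0.37, adjusted p = 2.06e-05 at 500 nM, but on log2(TPM + 1) the values were 0.04, adjusted p = 0.783 and -0.01, adjusted p = 0.929, and after centring the call at 150 nM was lost (0.14, adjusted p = 0.0702). In OCI-Ly1, BRIP1 measured 123, 123 and 132 CPM in the DMSO libraries, 125, 141.6 and 143 under 150 nM, and 135, 137 and 139 under 500 nM. That change had no call (0.12, adjusted p = 0.0886).

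PALB2 bridges BRCA1 and BRCA2, and BARD1 is the partner of BRCA1 in its ligase. PALB2 fell in TMD8 at 500 nM, from 51.2 to 65.8 CPM to 48.6 to 51.7 (-0.20, SE 0.078, adjusted p = 0.0376), with libraries that overlapped DMSO. The call was lost without DMSO replicate 1 (-0.10, adjusted p = 0.190), without any 1 of the 500 nM libraries (-0.20, adjusted p = 0.0760, -0.17, adjusted p = 0.119, and -0.22, adjusted p = 0.0541) and with library totals alone (-0.10, adjusted p = 0.224). BARD1 fell in TMD8 at 150 nM (-0.23, adjusted p = 0.0133) and had no call at 500 nM (-0.07, adjusted p = 0.388). Its call was lost without DMSO replicate 1 (-0.16, adjusted p = 0.0522), without 150 nM replicate 3 (-0.14, adjusted p = 0.152), with library totals alone (-0.14, adjusted p = 0.0801) and with the 6 libraries alone (-0.20, adjusted p = 0.0562).

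The strand-exchange genes were RAD51C, XRCC2, XRCC3, RAD52, RAD54L and RAD54B. At 500 nM 1 of the 6 rose in OCI-Ly1 and none fell by call, where 27.7% of all genes rose and 25.9% fell. In TMD8 2 fell and none rose, where 30.7% of all genes fell and 29.9% rose. RAD54L, a motor protein that drives strand invasion, measured 49.8, 47.6 and 49.4 CPM in the DMSO libraries, 43.0, 42.5 and 39.4 under 150 nM, and 38.6, 36.5 and 37.6 under 500 nM in TMD8. The 3 groups did not overlap, and the changes were -0.24, SE 0.057, adjusted p = 0.00285 at 150 nM and -0.38, SE 0.059, adjusted p = 2.26e-05 at 500 nM. In OCI-Ly1, RAD54L measured 36.1, 33.9 and 33.9 CPM in the DMSO libraries, 36.4, 35.9 and 34.6 under 150 nM, and 38.0, 35.8 and 38.6 under 500 nM. These groups overlapped in part, with 0.11, adjusted p = 0.149 at 500 nM. XRCC3, which pairs with RAD51C, fell in TMD8 from 42.3 to 43.3 CPM to 35.7 to 36.2 at 500 nM (-0.25, SE 0.056, adjusted p = 8.65e-04). At 150 nM its value was -0.15, adjusted p = 0.0354, lost in 9 of 14 alternatives, among them each 150 nM library left out (-0.15, adjusted p = 0.0622, -0.15, adjusted p = 0.0731, and -0.12, adjusted p = 0.165), DMSO replicates 2 and 3 left out (-0.15, adjusted p = 0.0687, and -0.14, adjusted p = 0.0816), and DESeq2 (-0.15, adjusted p = 0.133).

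RAD51C, a partner of XRCC3 in strand exchange, measured 52.6, 54.3 and 54.9 CPM in the DMSO libraries, 55.3, 58.4 and 61.5 under 150 nM, and 64.1, 63.0 and 59.3 under 500 nM in OCI-Ly1. The 500 nM libraries lay above DMSO (0.20, SE 0.061, adjusted p = 0.00907), but the value turned to -0.06, adjusted p = 0.328 on the centred TPM scale and missed the threshold without 500 nM replicate 1 (0.18, adjusted p = 0.0507). In TMD8, RAD51C measured 38.4, 35.8 and 38.8 CPM in the DMSO libraries, 36.9, 37.4 and 37.9 under 150 nM, and 36.6, 35.0 and 35.7 under 500 nM. The change there was -0.07, adjusted p = 0.298 at 500 nM. RAD54B, a relative of RAD54L, was lower in TMD8 at 150 nM (-0.28, adjusted p = 0.0257) with overlapping libraries, and at 500 nM its 25.8 to 32.3 CPM covered the 28.0 to 31.7 of DMSO. That call was lost without DMSO replicate 1 or 2 (-0.27, adjusted p = 0.0534, and -0.24, adjusted p = 0.0865), without 150 nM replicate 1 or 2 (-0.20, adjusted p = 0.104, and -0.25, adjusted p = 0.0910) and with library totals alone (-0.19, adjusted p = 0.134). XRCC2, a further strand-exchange gene, and RAD52, which anneals single strands, had no call against DMSO. At 500 nM XRCC2 was at -0.03 in OCI-Ly1 against -0.13 in TMD8, and RAD52 at 0.06 against 0.18. On log2(TPM + 1) RAD52 in TMD8 turned to -0.14, adjusted p = 0.192.

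RAD51C differed in a second readout, the ratio of estimated count to TPM, which holds the same count and so is not separate from it. This ratio follows the mean effective length of the transcripts to which reads were assigned, and is given relative to the DMSO libraries of its line. In OCI-Ly1 it was 0.995, 0.981 and 1.02 in the DMSO libraries, 1.04, 1.03 and 1.07 under 150 nM, and 1.14, 1.10 and 1.14 under 500 nM. Those at 500 nM lay above all others, a rise of 12.9% (limma, adjusted p = 0.0292). On the log2 scale this was 0.18, beside the 0.20 of the count itself. RAD51C was the 1 member called on this readout in OCI-Ly1 at 500 nM, where 0.272% of 13987 genes were called higher and 0.408% lower. On the log2 scale the call was lost without DMSO replicate 1, 2 or 3 (0.17, adjusted p = 0.102, 0.16, adjusted p = 0.0995, and 0.19, adjusted p = 0.0529) and without 500 nM replicate 1 or 3 (0.17, adjusted p = 0.0697, and 0.17, adjusted p = 0.0969). No member was called at 150 nM in OCI-Ly1, where no gene was, or in TMD8 at either dose, where 0.108% of 13924 genes were called higher and 0.0862% lower at 150 nM, then 0.768% and 0.56% at 500 nM.

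The Fanconi core complex gave 8 members: FANCA, FANCB, FANCC, FANCE, FANCF, FANCG, FANCL and FANCM. At 500 nM, 3 rose and none fell by call in OCI-Ly1, against 27.7% and 25.9% of all genes. In TMD8 3 rose and 1 fell, against 29.9% and 30.7%. FANCE, the subunit that contacts FANCD2, measured 18.6, 15.3 and 15.1 CPM in the DMSO libraries, 16.0, 15.7 and 15.5 under 150 nM, and 23.1, 26.2 and 24.7 under 500 nM in OCI-Ly1. Libraries of the high dose stood clear above the other groups, which overlapped (0.59, SE 0.090, adjusted p = 3.00e-05). In TMD8, FANCE measured 19.3, 23.4 and 19.8 CPM in the DMSO libraries, 19.4, 20.1 and 20.4 under 150 nM, and 19.4, 18.7 and 16.3 under 500 nM. That change had no call (-0.19, adjusted p = 0.0791). FANCC, which forms a subcomplex with FANCE and FANCF, measured 34.9, 34.9 and 29.8 CPM in the DMSO libraries, 30.7, 35.4 and 34.9 under 150 nM, and 44.9, 44.8 and 45.7 under 500 nM in OCI-Ly1. It too was higher at 500 nM alone (0.45, SE 0.076, adjusted p = 9.20e-05). In TMD8, FANCC measured 27.1, 27.7 and 28.1 CPM in the DMSO libraries, 27.3, 26.7 and 28.4 under 150 nM, and 28.9, 27.9 and 27.5 under 500 nM. The main value of 0.03, adjusted p = 0.744, had no call and turned to -0.30, adjusted p = 0.00840 on log2(TPM + 1).

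FANCF, the adaptor of that subcomplex, fell in TMD8. It measured 42.5, 43.6 and 41.4 CPM in the DMSO libraries, 39.0, 34.6 and 31.7 under 150 nM, and 34.2, 29.7 and 31.3 under 500 nM. Both doses lay below DMSO, with -0.28, adjusted p = 0.00491 at 150 nM and -0.42, adjusted p = 1.36e-04 at 500 nM, and the low-dose call was lost without 150 nM replicate 3 (-0.18, adjusted p = 0.0733). In OCI-Ly1, FANCF measured 33.6, 34.5 and 32.7 CPM in the DMSO libraries, 30.0, 34.6 and 35.4 under 150 nM, and 36.5, 37.4 and 35.0 under 500 nM. Its change was 0.11, adjusted p = 0.201 at 500 nM. FANCG, a scaffold of the core complex, was the member called higher in both lines. In OCI-Ly1, FANCG measured 58.2, 54.5 and 51.9 CPM in the DMSO libraries, 58.5, 58.1 and 50.1 under 150 nM, and 62.9, 64.9 and 63.1 under 500 nM. All 500 nM libraries lay above the rest (0.21, SE 0.068, adjusted p = 0.0133), and the call was lost without DMSO replicate 3 (0.17, adjusted p = 0.0675) and after centring (0.12, adjusted p = 0.139). In TMD8, FANCG measured 54.9, 57.4 and 57.7 CPM in the DMSO libraries, 57.0, 62.4 and 61.4 under 150 nM, and 72.8, 72.6 and 71.2 under 500 nM. The rise of 0.35, SE 0.052, adjusted p = 1.36e-05, turned to -0.02, adjusted p = 0.836 on log2(TPM + 1).

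FANCL, the ubiquitin ligase of the complex, measured 17.5, 13.5 and 17.7 CPM in the DMSO libraries, 17.1, 16.0 and 16.2 under 150 nM, and 19.9, 17.7 and 20.7 under 500 nM in TMD8. The 500 nM libraries overlapped DMSO narrowly, and the rise of 0.25, SE 0.101, adjusted p = 0.0377, turned to -0.10, adjusted p = 0.496 on log2(TPM + 1). It was lost without DMSO replicate 2 (0.13, adjusted p = 0.239), without 500 nM replicate 1 or 3 (0.23, adjusted p = 0.122, and 0.21, adjusted p = 0.129), with DESeq2 (0.23, adjusted p = 0.130) and after centring (0.15, adjusted p = 0.138). In OCI-Ly1, FANCL measured 32.9, 35.2 and 31.4 CPM in the DMSO libraries, 31.9, 37.6 and 33.8 under 150 nM, and 34.1, 37.0 and 33.1 under 500 nM. These libraries overlapped. FANCA rose in TMD8 at 500 nM, from 66.8 to 71.9 CPM to 77.1 to 79.4 (0.16, SE 0.055, adjusted p = 0.0175), and turned to -0.25, adjusted p = 0.0377 on log2(TPM + 1). That rise was lost without DMSO replicate 3 (0.12, adjusted p = 0.0947), without 500 nM replicate 1 or 2 (0.16, adjusted p = 0.0504, and 0.15, adjusted p = 0.0709), with DESeq2 (0.14, adjusted p = 0.0904) and after centring (0.01, adjusted p = 0.920). FANCB, a partner of FANCL, and FANCM, the helicase that anchors the complex to DNA, had no call at either dose. At 500 nM FANCB was at 0.13 in OCI-Ly1 against -0.18 in TMD8, and FANCM at -0.05 against 0.06. On log2(TPM + 1) FANCM in TMD8 turned to -0.23, adjusted p = 0.0585.

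FANCD2 and FANCI form the pair that the core complex marks with ubiquitin, and neither was called against DMSO. FANCD2 measured 226, 234 and 226 CPM in the DMSO libraries, 243, 238 and 245 under 150 nM, and 244, 243 and 251 under 500 nM in OCI-Ly1. Both doses lay above DMSO by a small step (0.11, SE 0.046, adjusted p = 0.0566 at 500 nM). In TMD8, FANCD2 measured 134, 126 and 127 CPM in the DMSO libraries, 123, 131 and 125 under 150 nM, and 120.0, 125 and 122 under 500 nM. The 500 nM libraries lay just below DMSO (-0.07, adjusted p = 0.183). At 500 nM FANCI was at 0.05 in OCI-Ly1 and -0.04 in TMD8. FANCD2 has partial pseudogene copies, so its reads are uncertain where the copies are near-identical.

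The 4 checkpoint kinases did not move together. In OCI-Ly1 at 500 nM 2 of the 4 fell and none rose by call, where 25.9% of all genes fell and 27.7% rose. In TMD8 1 rose and 3 fell, where 29.9% of all genes rose and 30.7% fell. ATM, the kinase that answers double-strand breaks, measured 156, 145 and 148 CPM in the DMSO libraries, 185, 185 and 184 under 150 nM, and 203, 205 and 207 under 500 nM in TMD8. Each dose lay above the one below, with 0.30, SE 0.044, adjusted p = 3.01e-05 at 150 nM and 0.45, SE 0.044, adjusted p = 8.20e-08 at 500 nM. Both calls were lost on log2(TPM + 1), with 0.13, adjusted p = 0.339 and 0.07, adjusted p = 0.575. In OCI-Ly1, ATM measured 370.0, 372 and 402 CPM in the DMSO libraries, 387, 418 and 409.6 under 150 nM, and 393, 384 and 403 under 500 nM. Those groups overlapped (0.04, adjusted p = 0.461 at 500 nM). ATR, the kinase that answers stalled forks, moved down instead. In OCI-Ly1, ATR measured 198, 197 and 216 CPM in the DMSO libraries, 198, 214 and 212 under 150 nM, and 172, 163 and 173 under 500 nM. Only 500 nM lay below DMSO (-0.27, SE 0.054, adjusted p = 4.45e-04), and on log2(TPM + 1) that call was lost (-0.13, adjusted p = 0.149). In TMD8, ATR measured 130.2, 118 and 122 CPM in the DMSO libraries, 105, 96.3 and 97.5 under 150 nM, and 90.4, 87.4 and 86.9 under 500 nM. The 3 groups did not overlap, with -0.31, adjusted p = 8.21e-05 at 150 nM and -0.48, adjusted p = 2.62e-07 at 500 nM.

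CHEK1, the kinase that ATR activates, measured 40.1, 35.7 and 39.6 CPM in the DMSO libraries, 31.4, 29.8 and 30.1 under 150 nM, and 28.1, 28.2 and 30.2 under 500 nM in TMD8. Both doses lay below DMSO and overlapped each other, with -0.34, adjusted p = 3.90e-04 at 150 nM and -0.42, SE 0.067, adjusted p = 3.04e-05 at 500 nM. In OCI-Ly1, CHEK1 measured 62.6, 63.0 and 65.8 CPM in the DMSO libraries, 62.4, 67.4 and 68.4 under 150 nM, and 68.9, 68.1 and 70.5 under 500 nM. Under 500 nM all libraries lay above DMSO without a call (0.12, adjusted p = 0.0991). CHEK2, the kinase that ATM activates, measured 45.0, 52.2 and 48.9 CPM in the DMSO libraries, 44.5, 47.3 and 43.6 under 150 nM, and 31.7, 34.2 and 31.0 under 500 nM in OCI-Ly1. It fell at 500 nM (-0.59, SE 0.071, adjusted p = 1.84e-06) and overlapped DMSO at 150 nM. In TMD8, CHEK2 measured 10.9, 12.4 and 11 CPM in the DMSO libraries, 12.7, 12.2 and 11.1 under 150 nM, and 10.7, 8.53 and 7.88 under 500 nM. The fall at 500 nM (-0.32, adjusted p = 0.0253) was lost without DMSO replicate 2 (-0.26, adjusted p = 0.0994), without 500 nM replicate 2 or 3 (-0.28, adjusted p = 0.0995, and -0.25, adjusted p = 0.107) and with library totals alone (-0.23, adjusted p = 0.106). CHEK2 has partial pseudogene copies, and its reads are uncertain to that extent. In bulk RNA fewer cells of a phase or type and less RNA per cell cannot be told apart.

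At 150 nM the lines stood apart already. In TMD8 2 members rose, ATM and BRIP1, and 12 fell, where 44.2% of genes were called, 19.2% higher and 25% lower. Their median change was -0.12, against 0.0113 over all genes tested. With library totals alone the split was 4 and 6, on log2(TPM + 1) 0 and 14, and after centring 1 and 15. Over all 15363 genes these scalings gave 6777, 5312 and 6620 calls, and 60.5%, 21.3% and 36% of those calls were higher. Without 150 nM replicate 3 the lower calls of members were 6. All genes then gave 5261 calls, 47.7% of them higher, against 6790 calls, 43.5% of them higher, with every library. In OCI-Ly1 the median was 0.08, against -0.00459, and 25 of 32 values were above 0. For 8 members all 3 libraries lay above all 3 of DMSO and for none below, where 6.73% and 7.29% of all genes did so. By the same measure at 500 nM, 16 lay above and 4 below in OCI-Ly1, against 31.3% and 29.3% of all genes, and 6 above and 14 below in TMD8, against 33.1% and 33.3%.

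Between the doses, 6 members were higher and 4 lower at 500 nM than at 150 nM in OCI-Ly1, where 46.2% of genes were called, 25.1% higher and 21.1% lower. The higher ones were EXO1 (0.59), BRCA1 (0.23), FANCE (0.65), FANCC (0.42), FANCG (0.19) and RAD52 (0.18). RAD50 (-0.27), NBN (-0.30), ATR (-0.30) and CHEK2 (-0.48) were lower. The split was 11 and 4 with library totals alone, 11 and 2 on log2(TPM + 1), and 4 and 9 after centring. Over all 15638 genes these gave 7422, 6821 and 7922 calls, and 67.9%, 72.7% and 31.8% of those calls were higher. The RAD52 call was lost whichever 1 of the 6 libraries was left out, with values from 0.14 to 0.20, and that of FANCG without 150 nM replicate 3 (0.12, adjusted p = 0.163) or any 1 of the 500 nM libraries (0.19, 0.17, and 0.20). In TMD8, where the dose step called 28.7% of genes, it called 4 members higher, against 13.7% of genes, namely RAD54B (0.28), FANCG (0.26), BRIP1 (0.16) and ATM (0.15). It called 2 lower, against 15% of genes, ATR (-0.17) and CHEK2 (-0.39). On log2(TPM + 1) this split was 0 and 7, with BRIP1 at -0.05 and ATM at -0.06, and after centring 1 and 4. Over all 15363 genes these gave 4444 and 4860 calls, and 10.4% and 41.7% of those calls were higher. Leaving out single libraries gave 2 to 5 higher and 0 to 5 lower calls, where 3273 to 4953 of all genes were called. Of the 6 members only FANCG kept its call under each of them. RAD54B and BRIP1 lost it without 150 nM replicate 1 or 2 or 500 nM replicate 1 or 2, with values from 0.20 to 0.25 and from 0.12 to 0.16. ATM lost it without 500 nM replicate 2 or 3 (0.15 and 0.14), ATR without 150 nM replicate 1 or 500 nM replicate 2 or 3 (-0.14, -0.17 and -0.16), and CHEK2 without 150 nM replicate 1 or 2 or 500 nM replicate 2 or 3 (-0.31 to -0.37).

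The difference between the lines was tested directly, as the response to a dose in OCI-Ly1 less the response in TMD8. At 500 nM 15 of 32 differences were positive and 2 negative by call, or 46.9% and 6.25%, where 46.4% of 16604 genes were called, 28.2% positive and 18.1% negative. The largest was EXO1, at 1.07, SE 0.078, adjusted p = 3.16e-11, followed by FANCE, at 0.81, SE 0.134, adjusted p = 2.05e-05, and BRCA1, at 0.66, SE 0.074, adjusted p = 6.88e-08. CHEK1 (0.57, adjusted p = 6.54e-06), FANCF (0.56, adjusted p = 1.40e-04) and RAD54L (0.53, adjusted p = 2.21e-05) differed too, with falls called in TMD8 alone. ATR, lower in both lines, still differed by 0.24, SE 0.079, adjusted p = 0.0136, with the larger fall in TMD8. FANCD2, called in neither line, differed by 0.21, SE 0.069, adjusted p = 0.0135. The 2 negative differences were ATM, at -0.38, SE 0.070, adjusted p = 9.02e-05, and BRIP1, at -0.21, SE 0.084, adjusted p = 0.0403, and both turned on log2(TPM + 1), to 0.11, adjusted p = 0.415 and 0.26, adjusted p = 0.0799. On that scale 26 were positive and none negative by call, while the median of all genes moved from 0.049 to 0.383. Of the 16604 genes, 10216 were called on it, and 89.1% of those calls were positive.

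Of the 15 positive differences at 500 nM, 12 kept their call under all 17 alternatives run for line differences: RBBP8, EXO1, BRCA1, BRCA2, RAD51C, RAD54L, FANCC, FANCE, FANCF, FANCD2, ATR and CHEK1. The alternatives were library totals alone, DESeq2, no low-count filter, log2(TPM + 1), a replicate block and each library compared left out. The centred scale was not among them. On log2(TPM + 1) the median of all genes was itself 0.383, so a positive call kept there says little. WRN was lost without DMSO replicate 1 of OCI-Ly1 or of TMD8 (0.20, adjusted p = 0.0761, and 0.21, adjusted p = 0.0572), and FANCB without 500 nM replicate 1 of TMD8 (0.31, adjusted p = 0.0534). PALB2 was lost without DMSO replicate 1 of OCI-Ly1 (0.24, adjusted p = 0.0811), its 500 nM replicate 1 (0.25, adjusted p = 0.0720), DMSO replicate 1 of TMD8 (0.18, adjusted p = 0.131) or its 500 nM replicate 2 (0.26, adjusted p = 0.0732). The negative call of BRIP1 was lost without DMSO replicate 2 or 3 or 500 nM replicate 1 or 2 of either line, with values from -0.17 to -0.22, and under DESeq2 (-0.18, adjusted p = 0.0919). At 150 nM 12 were positive and 1, ATM, negative, where 23.3% of genes were called, 15% positive and 8.33% negative. EXO1 (0.49, adjusted p = 6.13e-05), RAD54B (0.45, adjusted p = 0.00678) and CHEK1 (0.39, adjusted p = 0.00131) were the largest. The ATM value of -0.21, adjusted p = 0.0341, was lost on log2(TPM + 1) (-0.01, adjusted p = 0.951), without a low-count filter (-0.20, adjusted p = 0.0772), and without DMSO replicate 2 or 3 of either line, 150 nM replicate 1 or 3 of OCI-Ly1 or 150 nM replicate 1 or 2 of TMD8, with values from -0.17 to -0.21.

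**Figure D3:**
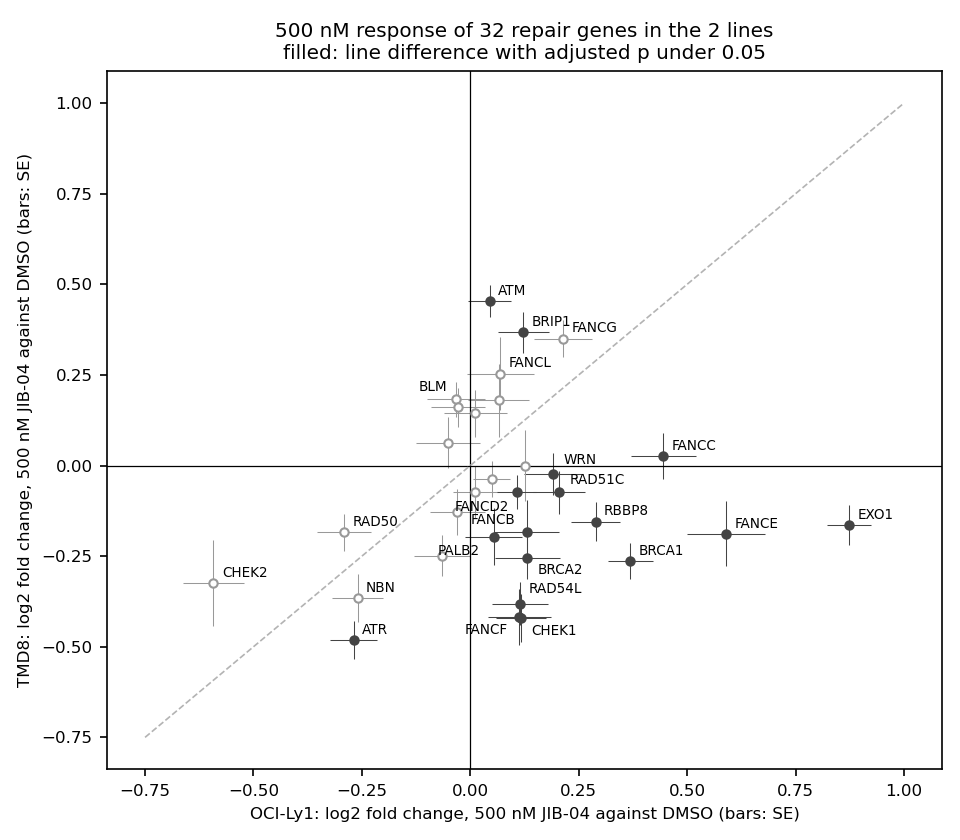
Log2 fold change at 500 nM against DMSO of the 32 genes in OCI-Ly1 (horizontal) and TMD8 (vertical), with standard errors; the dashed line marks equal change. Filled points are the 17 genes whose line difference passed the test, most of them below the dashed line, with EXO1 at 0.87 and -0.16, and ATM and BRIP1 above it.

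Other genes of the pathway came from a list of 48, of which all were tested in OCI-Ly1 and 47 in TMD8. At 500 nM, OCI-Ly1 had 20 of them higher and 11 lower, against 27.7% and 25.9% of all genes, with a list median of 0.09. TMD8 had 6 higher and 22 lower at that dose, against 29.9% and 30.7% of all genes. The list's median there was -0.09, and 0.0056 with library totals alone. At 150 nM none was called in OCI-Ly1, where 0.889% of all genes were. In TMD8 at that dose 4 of the list were higher and 16 lower, against 19.2% and 25% of all genes.

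Among these genes, SWI5 (0.81, adjusted p = 1.26e-06) and PSMC3IP (0.70, adjusted p = 5.89e-06), both of which assist strand exchange, had the largest rises in OCI-Ly1. PSMC3IP also rose in TMD8 (0.53, adjusted p = 2.70e-04), as did GEN1 (0.45, adjusted p = 1.39e-06), a nuclease that cuts recombination junctions, and on log2(TPM + 1) both TMD8 calls were lost (0.14, adjusted p = 0.296, and 0.08, adjusted p = 0.568). UBE2T, the ubiquitin-conjugating enzyme that works with FANCL, fell in OCI-Ly1 (-0.47, adjusted p = 1.37e-06) and in TMD8 (-0.62, adjusted p = 1.15e-06). FAM175A, a scaffold of a BRCA1 complex, fell in both as well (-0.47 in OCI-Ly1, -0.38 in TMD8), its OCI-Ly1 call lost on log2(TPM + 1) (-0.30, adjusted p = 0.0725). C17orf70, a core complex subunit, and RPA3, which coats single strands as part of a trimer, had the largest falls of the list in TMD8 (-0.63, adjusted p = 9.52e-07, and -0.63, adjusted p = 4.82e-05). In OCI-Ly1 they fell less (-0.31 and -0.16), and there the RPA3 call was lost whichever 1 of the 6 libraries was left out (-0.15 to -0.18) and the C17orf70 call without 500 nM replicate 3 (-0.22, adjusted p = 0.0664). Both OCI-Ly1 calls were also lost with library totals alone, with -0.08, adjusted p = 0.340 for RPA3 and -0.23, adjusted p = 0.0527 for C17orf70, and on log2(TPM + 1), with -0.02, adjusted p = 0.783 and -0.16, adjusted p = 0.209.

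End joining, the rival repair route, was read from 13 genes. In OCI-Ly1 at 500 nM 2 were higher and 5 lower, against 27.7% and 25.9% of all genes. The list's median was -0.07 and turned to 0.0155 with library totals alone and 0.0351 on log2(TPM + 1). In TMD8 1 was higher and 6 lower, against 29.9% and 30.7% of all genes, with a list median of -0.23. XRCC6, a subunit of the Ku ring that holds broken ends, went from 929 ± 5.08 to 699.6 ± 20.2 CPM (mean ± SD, n = 3) in OCI-Ly1, and TMD8 went from 521 ± 36.4 to 297 ± 8.53. XRCC5, the other Ku subunit, fell with it (-0.58 in OCI-Ly1, -0.78 in TMD8). PAXIP1, a partner of TP53BP1, fell in OCI-Ly1 (-0.61) and TMD8 (-0.43). C9orf142, which steadies Ku at ends, rose in OCI-Ly1 (0.40, adjusted p = 9.88e-04). TP53BP1, which opposes resection, rose by the same small step in OCI-Ly1 (0.15, adjusted p = 0.0280) and in TMD8 (0.15, adjusted p = 0.00818), and its TMD8 value was -0.21 on log2(TPM + 1). Its OCI-Ly1 call was lost without DMSO replicate 1 or 3 (0.11 and 0.15) and without 500 nM replicate 1 or 2 (0.10 and 0.15). After centring, TP53BP1 had no call in OCI-Ly1 (0.05, adjusted p = 0.427) or in TMD8 (0.05, adjusted p = 0.358), and with DESeq2 none in TMD8 (0.13, adjusted p = 0.0571).

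Many of the members are expressed most in cycling cells, so lists of cell-cycle genes were read beside them. Of 34 S-phase genes, 10 were higher and 8 lower in OCI-Ly1 at 500 nM, against 27.7% and 25.9% of all genes. The list's median was 0.05, and centring turned the split to 4 and 11 and the median to -0.0405. After centring 32.3% of the 8981 calls over all genes were higher. TMD8 had 5 higher and 22 lower, against 29.9% and 30.7% of all genes, with a list median of -0.29. In TMD8 at 150 nM 2 were higher and 22 lower, against 19.2% and 25% of all genes, with a list median of -0.25. In OCI-Ly1 at that dose none was called, where 0.889% of all genes were. CCNE2, a cyclin of the entry into S phase, was at 0.25 there, adjusted p = 0.120. It was called with DESeq2 (adjusted p = 0.0192), without a low-count filter (0.00405), with a replicate block (0.0243) and without 150 nM replicate 1 (0.00224). At 500 nM CCNE2 rose in OCI-Ly1 (0.52) and TMD8 (1.0). LIG1, a DNA ligase, rose in OCI-Ly1 (0.26) and TMD8 (0.45), the latter not on log2(TPM + 1) (0.07, adjusted p = 0.530). CDC45, a part of the replicative helicase, was higher in OCI-Ly1 (0.42, adjusted p = 1.96e-06) and lower in TMD8 (-0.15, adjusted p = 0.0408). Its TMD8 call was lost without DMSO replicate 1 or 3 (-0.12 and -0.15), without 500 nM replicate 1 or 3 (-0.10 and -0.16), with DESeq2 (-0.18) and with library totals alone (-0.06). RFC3, part of the clamp loader, fell in OCI-Ly1 (-0.55) and TMD8 (-0.52), as did RRM1, a subunit of ribonucleotide reductase (-0.39, -0.39), and GINS1, of the replicative helicase (-0.38, -0.74). MCM5, another helicase subunit, fell in TMD8 (-0.66) and had no call in OCI-Ly1 (0.07, adjusted p = 0.308).

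Of 18 G2/M genes, 17 fell in OCI-Ly1 and 18 in TMD8 at 500 nM, against 25.9% and 30.7% of all genes. The list's medians were -0.64 and -1.48. At 150 nM none was called in OCI-Ly1, where 0.889% of all genes were, with a list median of -0.04. PLK1, a mitotic kinase, was at -0.27 there, adjusted p = 0.0558. It was called with DESeq2 (adjusted p = 0.0153), without a low-count filter (0.0128) and with a replicate block (0.0338). Without DMSO replicate 3 (0.0478) or 150 nM replicate 1 (0.0167) it was called too, and CDC20 without 150 nM replicate 1 (-0.24, adjusted p = 0.0389). All 18 fell in TMD8 at that dose, against 25% of all genes, with a list median of -0.73. At 500 nM PLK1 went from 102 ± 6.90 to 37.1 ± 1.89 CPM in OCI-Ly1, and in TMD8 the step was from 193 ± 14.0 to 25.1 ± 1.0. CCNB1, the mitotic cyclin, changed by -1.27 in OCI-Ly1 and -2.45 in TMD8 on the log2 scale. CDC20, which opens the way out of mitosis, changed by -1.16 and -2.59. Summed over the list, OCI-Ly1 went from 5212 to 5666 CPM with DMSO to 3432 to 3477 at 500 nM, and TMD8 from 4148 to 4709 CPM to 1700.5 to 1732. These lists moved in the same libraries as the members, and their part in the members' changes was not tested.

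**Figure D4:**
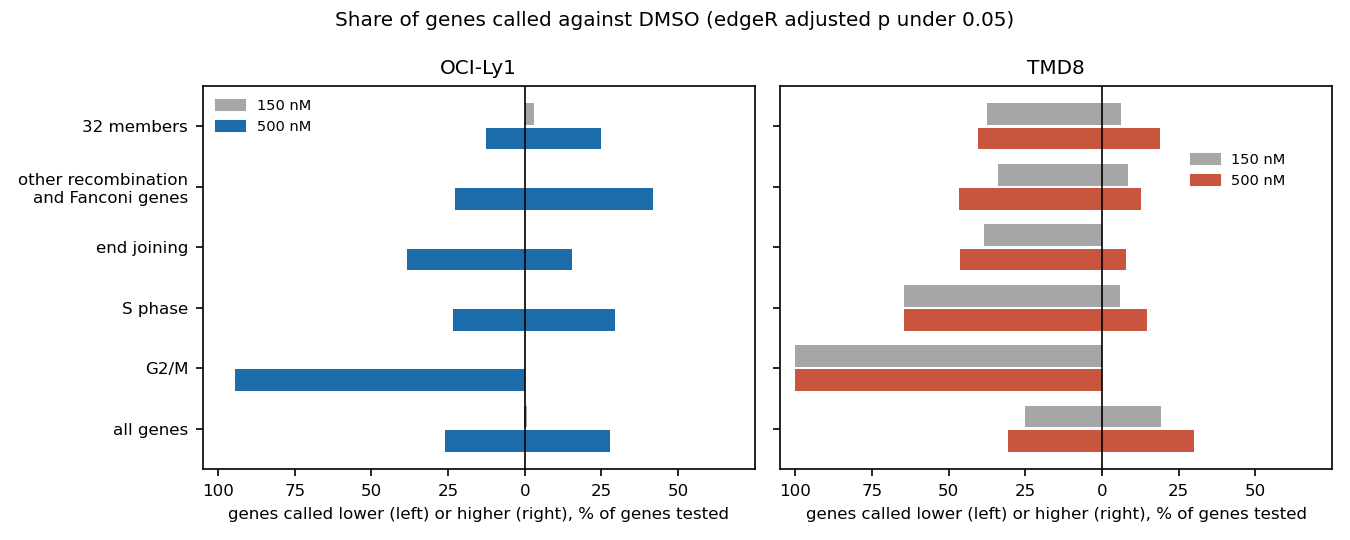
Share of genes called lower (bars to the left) or higher (bars to the right) against DMSO, in percent of the genes tested, for the 32 members, 4 lists of related genes and all genes; grey bars are 150 nM and coloured bars 500 nM. In TMD8 the members' lower share is 37.5% and 40.6% at the 2 doses, while the G2/M list reaches 100% there and the members of OCI-Ly1 stay at 12.5% or under.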

How the data were processed

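RNA of 18 libraries was read by paired-end sequencing after ribosomal RNA depletion, per the labels' protocols. The authors deposited estimated counts per gene and TPM values, with kallisto 0.46.0, R 4.3.1, DESeq2 1.40.2 and hg19 named in the submitters' processing notes. The index, the annotation and the step from transcripts to genes are not given in the sources used here. Here the estimated counts were rounded to whole numbers, filtered (filterByExpr), scaled by TMM and tested with edgeR 4.0.16 (quasi-likelihood, Benjamini-Hochberg over all genes, threshold 0.05), with 9 libraries of a line fitted together and 18 for line differences. Counts per TPM were tested with limma 3.58.1 over genes with at least 10 counts in every library. The code was tested on simulated data. Groups came from the labels, and no column was left out. The 32 members and all lists were chosen with earlier results of these data known. Library values are given for BRCA1, BRCA2, FANCD2, ATM and CHEK1, the 4 largest called rises and falls at 500 nM in each line (at least 5 CPM), members called in opposite directions, the 2 largest line differences each way, calls at 150 nM in OCI-Ly1, and called counts per TPM. Of other lists, at most 2 called genes each way are named, and 1 gene that the rule also names is not reported here. Alternatives were library totals alone, DESeq2 1.42.0, no filter, log2(TPM + 1), log2(TPM + 0.1), centred log2(TPM + 1), a replicate block, 6 libraries alone, and each library left out. Line differences were not run on log2(TPM + 0.1), on centred log2(TPM + 1) or with 6 libraries alone.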

Additional observations from a re-analysis of the deposited data

Results flagged for a closer look

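A difference between the lines in the response to the same dose put 13 members at 150 nM and 17 at 500 nM here, each by the interaction test over the 18 libraries (edgeR, quasi-likelihood, adjusted over all genes). Of all genes tested, 23.3% passed at 150 nM and 46.4% at 500 nM. A value is the log2 change in OCI-Ly1 less that in TMD8, so a positive value means a higher response in OCI-Ly1. Line and culture medium cannot be told apart in these differences.

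Among end-sensing and resection genes at 150 nM the differences were 0.35 for RBBP8, 0.49 for EXO1 and 0.27 for WRN. BRCA1 differed by 0.33, BARD1 by 0.34 and BRCA2 by 0.37 at that dose. The RAD54 pair differed by 0.28 for RAD54L and 0.45 for RAD54B. Of the Fanconi genes, FANCB differed by 0.38 and FANCI by 0.23. The kinases ATR and CHEK1 differed by 0.35 and 0.39, and ATM by -0.21. EXO1 was the only one of these with a call against DMSO in OCI-Ly1 at 150 nM, and FANCB, WRN and FANCI had none in TMD8 either. The WRN difference was lost without DMSO replicate 1 or 150 nM replicate 2 or 3 of OCI-Ly1 (0.22, 0.26 and 0.26), without DMSO replicate 1 or 150 nM replicate 2 or 3 of TMD8 (0.23, 0.25 and 0.25) and with library totals alone (0.18). RAD54L was lost without 150 nM replicate 3 of TMD8 (0.24) and with library totals alone (0.20), FANCI without DMSO replicate 1 or 150 nM replicate 3 of TMD8 (0.18 and 0.20) and with library totals alone (0.14), and FANCB with library totals alone (0.30).

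At 500 nM RBBP8 differed by 0.47, EXO1 by 1.07 and WRN by 0.25. The differences were 0.66 for BRCA1, 0.42 for BRCA2, 0.28 for PALB2 and -0.21 for BRIP1. RAD51C differed by 0.31 and RAD54L by 0.53. Of the core complex, FANCB differed by 0.34, FANCC by 0.45, FANCE by 0.81 and FANCF by 0.56, and FANCD2 beside it by 0.21. The kinase differences were -0.38 for ATM, 0.24 for ATR and 0.57 for CHEK1. PALB2, BRIP1, RAD51C, FANCC, FANCE, FANCF and FANCD2 passed the test of the difference at 500 nM and not at 150 nM, and whether their differences changed with the dose was not tested. The G2/M genes differed between the lines too. In the main fit 0 of 18 were called in OCI-Ly1 at 150 nM and 18 were lower in TMD8. Some alternatives called PLK1 or CDC20 in OCI-Ly1 at that dose. The median line difference of the list was 0.73 at 150 nM and 0.80 at 500 nM. Over all genes at 150 nM, 0.889% were called in OCI-Ly1 and 25% were lower in TMD8. The part of the G2/M list in the differences of the members was not tested.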

How the results depend on the processing

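Of 3784 values of the members under alternatives, 3426 stayed on the same side of the threshold. Among these 3426, 230 had the opposite sign, with neither value past the threshold. Of the rest, 167 were no longer past it, 167 were newly past it, and 24 had the opposite sign with at least 1 of both values past it. The scaling also set the median log2 change of all genes tested, which in TMD8 at 500 nM was 0.0414 with TMM, 0.134 with library totals alone, -0.219 on log2(TPM + 1) and -0.309 on log2(TPM + 0.1).

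With library totals alone, 18 members were higher in OCI-Ly1 at 500 nM and 11 between its doses, 4 were higher and 6 lower in TMD8 at 150 nM, 8 were lower in TMD8 at 500 nM, and 2 line differences at 150 nM were negative. In the same order all genes gave 8552, 7422, 6777 and 9562 calls within a line, 64%, 67.9%, 60.5% and 59.4% of them higher. Line differences of all genes at 150 nM gave 3652 calls, 47% of them positive. On log2(TPM + 1) and log2(TPM + 0.1) alike, 19 were higher and 1 lower in OCI-Ly1 at 500 nM, 11 and 2 between its doses, 0 higher in TMD8 at either dose, 24 lower in TMD8 at 500 nM, and 0 higher and 7 lower between its doses. On log2(TPM + 1) all genes gave 7979 and 6821 calls in OCI-Ly1 in that order, 71.9% and 72.7% of them higher. TMD8 gave 5312 at 150 nM, 9332 at 500 nM and 4444 between its doses, 21.3%, 18.8% and 10.4% of them higher. On log2(TPM + 0.1) these higher shares were 71.8%, 72.6%, 22.5%, 18.9% and 9.24%. On log2(TPM + 1) 26 line differences at 500 nM were positive and 0 negative, and 0 were negative at 150 nM. Line differences of all genes there gave 10216 calls at 500 nM and 4027 at 150 nM, 89.1% and 85.2% of them positive. After centring, 5 were higher in OCI-Ly1 at 500 nM and 9 lower between its doses, 1 was higher in TMD8 at 150 nM and 3 at 500 nM, and 1 higher and 4 lower between its doses. In the same order all genes gave 8981, 7922, 6620, 10371 and 4860 calls, 32.3%, 31.8%, 36%, 48.3% and 41.7% of them higher. DESeq2 gave 2 higher between the TMD8 doses and 1 negative line difference at 500 nM. Without a low-count filter these were 2 and 1, with 4 lower between the TMD8 doses and 0 negative line differences at 150 nM. Over all genes DESeq2 gave 3639 calls between the TMD8 doses, 38.6% of them higher, and 7253 line differences at 500 nM, 65.5% of them positive. Without the filter these were 4896 calls, 39.5% of them higher, and 7705 line differences, 62.5% of them positive. At 150 nM there were then 4001 line differences, 64.3% of them positive. A count minimum of 50 gave 2 members with changed counts per TPM in OCI-Ly1 at 500 nM.

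Leaving out 1 library at a time gave 0 to 3 higher in OCI-Ly1 at 150 nM, with 0 without DMSO replicate 2 and 3 without 150 nM replicate 1. All genes gave 86 and 339 calls under those 2, 86% and 77.9% of them higher. In TMD8 at 150 nM 6 to 12 members were lower, with 6 without 150 nM replicate 3, where all genes gave 5261 calls, 47.7% of them higher. Between the TMD8 doses 2 to 5 members were higher and 0 to 5 lower, where all genes gave 3273 to 4953 calls. Negative line differences of members were 0 to 1 at 150 nM and 1 to 2 at 500 nM. All genes gave 2768 to 4095 and 6860 to 7406 line differences there, 62% to 66% and 61% to 62.6% of them positive. Members with changed counts per TPM at 500 nM were 0 to 1 in OCI-Ly1 and 0 to 1 in TMD8, the 1 in TMD8 without DMSO replicate 3. The cause was not tested.

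Directions turned as follows. RAD51C in OCI-Ly1 at 500 nM was -0.0638 after centring. In TMD8 at 500 nM, on log2(TPM + 1) and then log2(TPM + 0.1), BLM was -0.18 and -0.19, BRIP1 -0.0116 and -0.0125, FANCA -0.25 and -0.27, FANCC -0.30 and -0.37, FANCG -0.0233 and -0.0246, and FANCL -0.10 and -0.11. Between the TMD8 doses BRIP1 was -0.0533 and -0.0604 and ATM -0.0604 and -0.0668. Line differences at 500 nM on log2(TPM + 1) were 0.34 for MRE11A, 0.38 for RAD50, 0.26 for BRIP1, 0.33 for RAD52, 0.31 for FANCA, 0.37 for FANCG and 0.11 for ATM.

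Same-numbered libraries of different groups had correlated deviations of -0.0668 to 0.259 in OCI-Ly1 and -0.0696 to 0.18 in TMD8, above 0.1 in 2 of 9 pairs each. Different-numbered pairs ran from -0.287 to 0.0709 and from -0.222 to 0.16, above 0.1 in 0 and 1 of 18. The same-numbered pairs above 0.1 joined DMSO with 150 nM, for replicates 1 and 3 (0.259 and 0.259 in OCI-Ly1, 0.18 and 0.143 in TMD8). Whether the numbers mark a pairing of these 2 groups was not tested. With the number as a block, OCI-Ly1 had 1 member higher and 0 lower at 150 nM, 8 higher and 4 lower at 500 nM, and 6 higher and 5 lower between the doses. TMD8 with the block had 2 higher and 12 lower, 7 higher and 13 lower, and 4 higher and 2 lower in the same order. In that order all genes gave 207, 8615 and 7540 calls in OCI-Ly1, 76.8%, 51.8% and 54.4% of them higher. In TMD8 they gave 6827, 9390 and 4582 calls, 43.7%, 49.6% and 47.8% of them higher. Blocked line differences were 14 positive and 1 negative at 150 nM and 16 positive and 2 negative at 500 nM. Over all genes they were 4156 and 7888, 64.3% and 61.1% of them positive. The block ended 1 call of a member, RAD54B between the TMD8 doses (0.28, adjusted p = 0.0542 by edgeR).

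Precision differed between members, and the part of read depth in it was not tested. The standard error of the log2 change at 500 nM ran from 0.0423 for FANCI to 0.0904 for FANCE in OCI-Ly1 and from 0.0441 for ATM to 0.119 for CHEK2 in TMD8, where a 500 nM library held as few as 76.6 estimated CHEK2 counts.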
